A study of Mus musculus with 13 samples.

Results

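The regions described here were called as peaks of DNA-RNA hybrid signal both without and with RNase H, the ribonuclease that removes the RNA strand of a hybrid. Peaks of the 9 untreated DRIP-seq lists were merged into 69497 regions, of which 38025 were called in 2 or more of the 9 lists. Of these 38025, 1417 shared at least 1 base with a peak in 1 or more of the 3 RNase H lists and form the set of members. The members thus made up 3.73% of the recurrent regions, and the other 36608 had no RNase H peak. Members were thus chosen by the peak calls of both kinds of library, which rest on fold and p. Fold and width before and after digestion are therefore given as a description with no test.

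The libraries came from N2a cells, a mouse neuroblastoma line, transfected with siScramble (genotype given as WT), siDDX1 (DDX1 knockdown) or siEXOSC3 (EXOSC3 knockdown). Each group had 3 untreated libraries and 1 library from DNA that had been digested with RNase H before the pull-down with the S9.6 antibody. Before the digestion, the genomic DNA of all libraries was cut with 5 restriction enzymes. DDX1 belongs to the DEAD-box family of RNA helicases, and EXOSC3 is part of the exosome that degrades RNA. Both were depleted by transient transfection, so that cells without effective knockdown can remain in each library. Groups follow the sample titles, but in 12 of 12 lists the peaks were named after another treatment than the title gives, always in the same rotation. Groups are therefore called by their labels, and neither the comparison with RNase H nor a test across all 3 groups depends on which name is right. Of 11 genes that mark the neuroblastoma and sympathetic lineage, among them Hand2 and Gata3, 4 had a recurrent region within 1000 bases of a start and none overlapped a member, which measures hybrids and not expression.

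In an R-loop, nascent RNA pairs with the template strand of DNA and leaves the other strand single. The S9.6 antibody binds such hybrids, and RNase H is used to remove them, so that a digested library serves as a control of the assay. At genes, R-loops are known to form often near transcription starts and over GC-rich sequence. The classes of region below are therefore ordered from regions with edges on restriction cuts and repeated sequence to genes.

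The RNase H libraries were deeper than 8 of the 9 untreated ones. MACS2 writes the fold of a peak as its summit pile-up plus 1 over the background plus 1, and the −log10 p from the same pair, so that both could be recovered. The genome-wide background of a list, which scales with its number of fragments, was 0.78 to 1.02 times the mean of the untreated libraries in 8 of them. It was 1.86 times in replicate 1 labelled siDDX1, and for the digested DNA it was 2.30 times in siScramble, 1.68 times in siDDX1 and 1.62 times in siEXOSC3. The median summit of a member held 11 to 17 fragments in the untreated libraries and 16 to 19 in the RNase H libraries. The part of depth in the calls was not tested.

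Among the members, 597 were called in 1 of 3 RNase H lists, 274 in 2 and 546 in all 3. Of the untreated lists, 2 of 9 called 294 members (20.7%, beside 28.1% of all recurrent regions) and 9 of 9 called 465 members (32.8%, beside 19.6%). The RNase H list labelled siScramble, with 8034 peaks, overlapped 1136 members (2.99% of all recurrent regions). The lists labelled siDDX1 and siEXOSC3, with 3918 and 3811 peaks, overlapped 765 (2.01%) and 882 (2.32%).

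Between pairs of RNase H lists, the shared part of these regions depended on the list. Of the 1136 regions called in the siScramble RNase H list, 57.0% were also called in the siDDX1 RNase H list and 61.1% in that labelled siEXOSC3. Of the 765 in the siDDX1 list, 84.6% were called in the siScramble list and 74.6% in the siEXOSC3 list. Of the 882 in the siEXOSC3 list, 78.7% and 64.7% were called in the siScramble and siDDX1 lists. Each of these shares stands beside 2.01% to 2.99% of all recurrent regions in the list looked up.

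At the edge of the rule, 34 members shared 10 bases or fewer with an RNase H peak. The members with the fewest shared bases were chr5:65869713-65871527 in an intron of 1110003E01Rik with 1 base, chr8:119654602-119658066 in an intron of Bcmo1 with 2, and chr11:94189622-94190047 at the start of Ankrd40 with 3. Just outside, the recurrent regions chr1:137530029-137530529, chr11:96650040-96650967 and chr11:98725388-98725839 touched an RNase H peak and shared 0 bases with it. A further 777 regions with an RNase H peak were called in 1 of 9 untreated lists and so missed the rule on the other side.

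Over all members, fold enrichment before and after digestion was nearly the same at the median, and the spread was wide. For each member and library the highest fold among its peaks was taken, and log2 values were averaged over the lists that called it. The median fold was 6.00 in the untreated and 6.00 in the RNase H libraries. The log2 fold in RNase H minus untreated libraries had a median of 0.05 with quartiles of −0.54 and 0.64, and ranged from −4.64 to 3.17. It was above 0 in 741 members and below 0 in 676. Libraries that did not call a region give no value, so a low mean after digestion counts the remaining peaks only.

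A summit scaled by depth gave a different balance. With the summit pile-up divided by the genome-wide background of its library, in place of the fold, the median log2 difference was −0.32, and 524 members (37.0%) lay above 0. The sign of the median thus depends on how a shallow and a deep library are set beside each other.

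**Figure D1:**
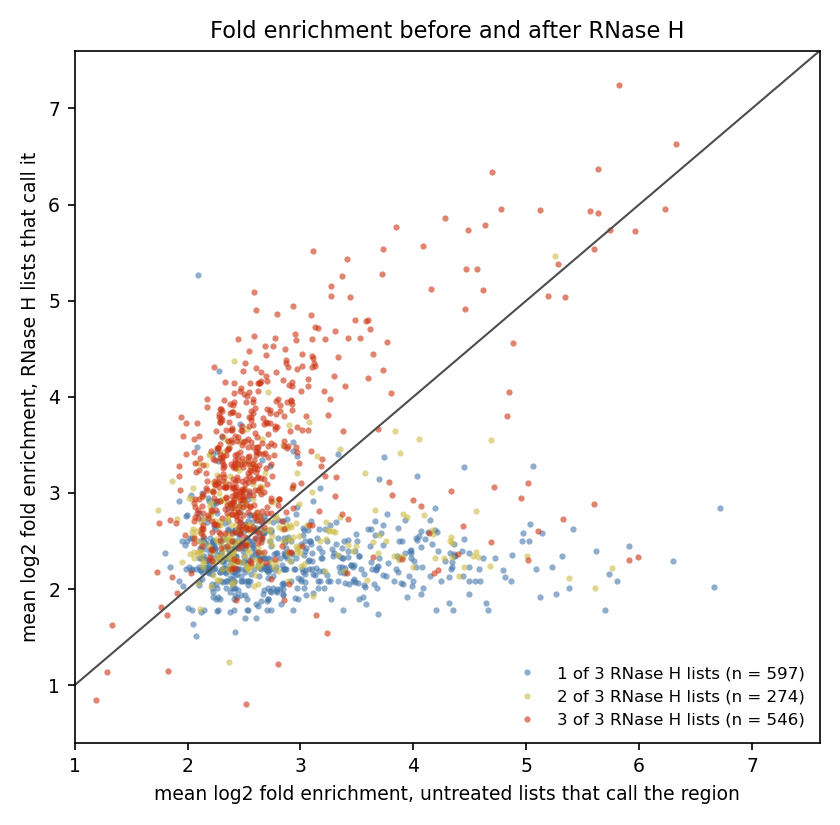
Each point is 1 of the 1417 members, with its mean log2 fold over the untreated lists that called it on the x axis and over the RNase H lists that called it on the y axis, coloured by the number of RNase H lists. The line marks equal values. Members called in 3 RNase H lists lie mostly above it, with a median difference of 0.72, and members called in 1 list mostly below, with a median of −0.42.

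The difference followed the number of lists. Members called in 1, 2 and 3 RNase H lists had median log2 differences of −0.42, −0.01 and 0.72, with 24.5%, 48.9% and 84.4% of them above 0. Members called in 2 of 9 untreated lists had a median of 0.42 and those called in 9 of 9 a median of −0.96, with 81.3% and 13.3% above 0. Calls rest on fold, so this order is a description of values that the rule used.

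**Figure D2:**
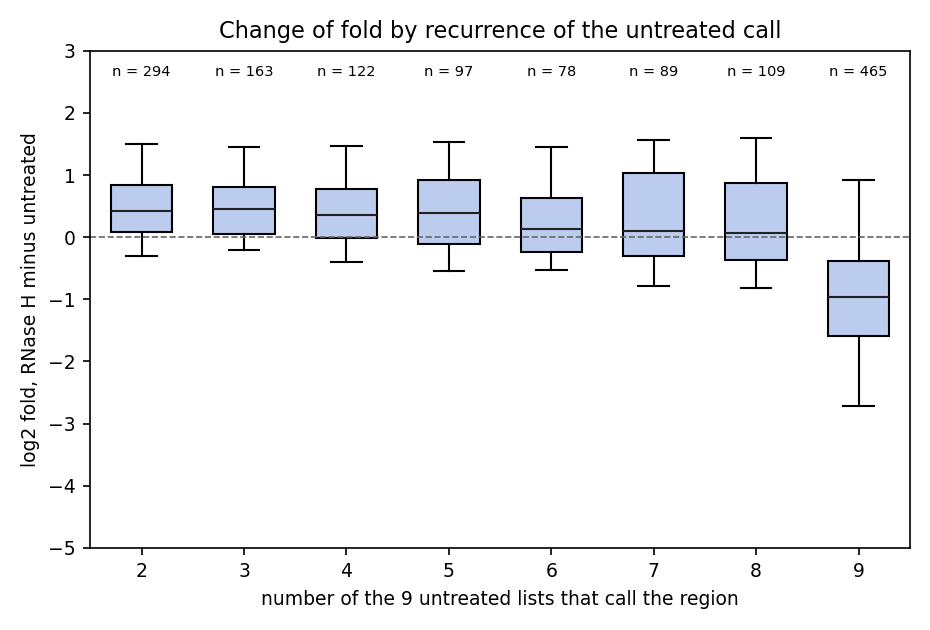
The x axis gives the number of the 9 untreated lists that called a member, and the y axis its log2 fold in RNase H minus untreated libraries. Boxes span the quartiles with the median as a line, and whiskers run from the 5th to the 95th percentile. The medians lie between 0.06 and 0.45 for members called in 2 to 8 lists and at −0.96 for those called in all 9.

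Widths before and after digestion were set side by side in the same way. The summed width of the peaks at a member had a median of 660 bases in untreated lists and 521 in RNase H lists. In the 465 members called in 9 of 9 untreated lists the medians were 2830 and 439 bases, and in the 546 members called in all 3 RNase H lists they were 559 and 792 bases. The 270 members called in 9 untreated lists and 1 RNase H list kept a median of 10.2% of their untreated covered bases in the RNase H list that called them. Their summed peak width had a median of 3353 bases before and 342 after. Members whose fold was higher after RNase H kept 109%, and those whose fold was lower kept 25.3%. With the direction taken from the depth-scaled summit, 524 higher members kept 115% and 893 lower members kept 37.6%.

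**Figure D3:**
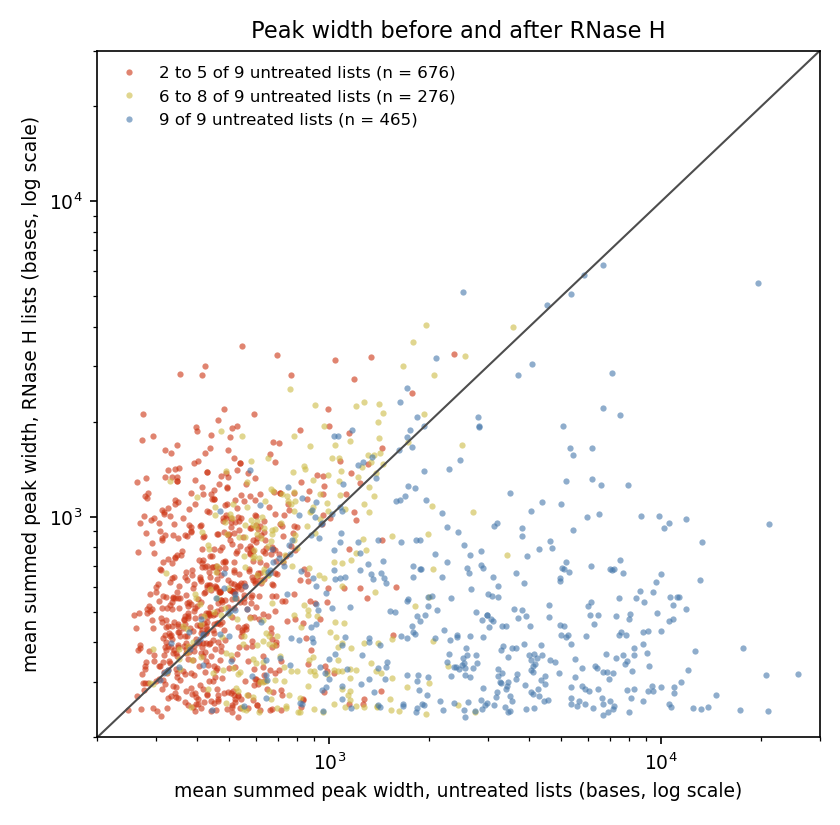
Each point is 1 member, with the mean summed width of its peaks over untreated lists on the x axis and over RNase H lists on the y axis, both in bases on log scales. Colours give the number of untreated lists that called it, and the line marks equal widths. Members called in all 9 lists spread to the right, at a median of 2830 bases before and 439 after, while those called in 2 to 5 lists gather near the line, at 457 and 560.

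Peaks with the same edges before and after RNase H mostly began and ended on restriction cuts. In 239 members (16.9%) an untreated list and an RNase H list called a peak with exactly the same start and end, and in 228 of them both ends lay on a cut position of 1 of the 5 enzymes. Such identical peaks occurred in 207 of the 546 members called in all 3 RNase H lists (37.9%) and in 6 of the 597 called in 1 (1.01%). Members called in all 3 have more pairs of lists that can match. They were also narrower, with a median region width of 822 bases against 1919 in those called in 1. In 9 members the same 2 edges were called in all 12 lists. Both edges lay on cuts in 28.3% of the 2981 RNase H peaks at members and in 14.7% of the 12627 untreated peaks at members, beside 17.2% of all RNase H peaks and 7.21% of all untreated peaks. Recognition sites searched on both strands were TGTACA for BsrGI, GAATTC for EcoRI, AAGCTT for HindIII, AATATT for SspI and TCTAGA for XbaI.

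Of the 9 members with the same edges in all 12 lists, which tie at no change of width, the edges of the 5 with the highest untreated fold are shown because they give the cut sites. Each line gives 40 bases of mm9 on the plus strand around 1 edge, which lies after the 20th base, with the recognition site in capitals.
chromosome 1 fragment, left edge, BsrGI site, chr1:92657871-92657910: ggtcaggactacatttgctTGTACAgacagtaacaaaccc
chromosome 1 fragment, right edge, BsrGI site, chr1:92659494-92659533: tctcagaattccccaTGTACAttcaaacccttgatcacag
chromosome 15 fragment, left edge, HindIII site, chr15:18329812-18329851: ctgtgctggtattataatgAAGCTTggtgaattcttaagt
chromosome 15 fragment, right edge, BsrGI site, chr15:18330765-18330804: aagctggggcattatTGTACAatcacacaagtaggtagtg
chromosome 2 fragment, left edge, HindIII site, chr2:47683718-47683757: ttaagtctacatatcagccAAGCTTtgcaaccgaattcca
chromosome 2 fragment, right edge, SspI site, chr2:47684736-47684775: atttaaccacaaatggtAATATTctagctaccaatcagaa
chromosome 9 fragment, left edge, BsrGI site, chr9:88452957-88452996: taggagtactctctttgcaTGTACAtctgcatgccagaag
chromosome 9 fragment, right edge, EcoRI site, chr9:88453904-88453943: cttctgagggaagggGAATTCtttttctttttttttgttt
chromosome 4 fragment, left edge, SspI site, chr4:89750533-89750572: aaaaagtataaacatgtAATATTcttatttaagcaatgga
chromosome 4 fragment, right edge, HindIII site, chr4:89751297-89751336: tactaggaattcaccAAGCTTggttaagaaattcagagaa
All 10 edges fell inside such a site, and the 5 regions had the same edges in all 12 lists. On chromosomes 1, 15, 2 and 4, the printed bases also hold GAATTC inside the region, so these regions span a further EcoRI site. Other sites inside the regions were not looked for, and the word fragment is used here for the edges only.

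The chromosome 9 fragment, chr9:88452977-88453923, lies in an intron of Zfp949, which encodes a zinc finger protein, and measured 947 bases in every list. Its fold ran from 15.2 over a median of 26.6 to 38.4 in the 9 untreated libraries. After digestion it was 85.2 in siScramble, 81.4 in siDDX1 and 76.4 in siEXOSC3, above every untreated value. RNase H values below are in this order of labels. The log2 difference was 1.64, and 1.31 after scaling by depth.

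The chromosome 4 fragment, chr4:89750553-89751316, lies outside annotated genes and holds 764 bases. Untreated folds ran from 11 over 27.8 to 40.3, and RNase H folds were 61.3, 42.5 and 64.5. By fold, all 3 digested libraries lay above the 9 untreated ones. As summit over library background they were 99.1, 78.1 and 121 against at most 104 untreated, and so overlapped.

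At chr1:92657891-92659513, 10.3 kb from the nearest start, that of Col6a3, folds ran from 20.5 over 55.2 to 75.8 before and were 46.8, 91.8 and 131 after. At chr15:18329832-18330784 they ran from 25.6 over 45.9 to 69.6 before and were 57.6, 48.1 and 81.5 after. Both sets of values overlapped. The fragment chr2:47683738-47684755 was lower on average after digestion, with untreated folds from 17.4 over 27.0 to 49.8 and RNase H folds of 13.0, 9.16 and 22.9, which also overlapped. An identical width thus stood beside a higher, a similar or a lower fold.

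Of the 10 members with the highest mean fold after RNase H, among those called in all 3 RNase H lists and at least 8 untreated lists, 3 were the chromosome 1, 9 and 15 fragments just given and 1 was that on chromosome 4. The highest was chr16:11143986-11144409, within Zc3h7a at the annotated microRNA gene mmu-mir-689-2. Its fold ran from 38.7 over 55.0 to 71.9 in untreated libraries and was 116, 156 and 190 after digestion, with no overlap. The local background there was 14.1 times the genome-wide one in untreated and 13.9 times in RNase H lists.

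At chr5:147072555-147072940, within Cdk8, a kinase gene of the Mediator complex, the annotated microRNA gene AC113316.1 overlaps the member. Folds ran from 51.3 over 74.3 to 140 before and were 46.7, 62.2 and 81.1 after. The values overlapped, and the log2 difference was −0.28. The local background was 11 times the genome-wide one. Both sequences are shown because a member of this kind is short and lies at a small annotated RNA. The 300 bases around the RNase H summit are given on the plus strand of mm9, with the annotated microRNA gene of GENCODE in capitals.
chromosome 16 member at mmu-mir-689-2, chr16:11144064-11144363: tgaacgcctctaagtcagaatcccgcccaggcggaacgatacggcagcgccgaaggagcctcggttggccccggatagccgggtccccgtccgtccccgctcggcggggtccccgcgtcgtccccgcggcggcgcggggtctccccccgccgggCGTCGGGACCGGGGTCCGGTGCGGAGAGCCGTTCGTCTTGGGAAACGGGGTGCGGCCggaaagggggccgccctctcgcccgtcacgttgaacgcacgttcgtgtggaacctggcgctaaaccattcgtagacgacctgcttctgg
chromosome 5 member at AC113316.1, chr5:147072572-147072871: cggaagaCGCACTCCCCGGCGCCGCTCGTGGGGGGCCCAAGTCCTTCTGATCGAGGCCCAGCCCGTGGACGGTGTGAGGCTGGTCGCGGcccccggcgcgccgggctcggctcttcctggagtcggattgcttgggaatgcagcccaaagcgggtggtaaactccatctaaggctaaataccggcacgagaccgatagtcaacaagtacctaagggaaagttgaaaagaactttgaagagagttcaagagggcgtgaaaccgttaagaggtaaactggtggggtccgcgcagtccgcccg
Of the 31-base words in the first window, 91.1% occurred more than once in mm9, with a median of 4 copies, and in the second 23.3% did so. A ribosomal DNA unit was not used here, so a match of these windows, or of the shared sequence given next, to ribosomal RNA was not looked for.

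Of the other members among the 10, chr7:143362549-143365363, outside genes, had folds from 14.1 over 18.4 to 25.9 in the 8 untreated libraries that called it and of 67.8, 49.0 and 58.8 after digestion. At chr11:108872962-108873425, also outside genes, folds ran from 23.2 over 36.0 to 48.7 before and were 58.6, 61.0 and 64.9 after. In both, every RNase H fold lay above every untreated one, but as summit over library background the chromosome 11 member overlapped. Over the 114 members called in all 12 lists, RNase H folds lay above all untreated ones in 18 and below in 31, and overlapped in 65. As summit over background, the counts were 10, 39 and 65.

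The remaining members of the 10, chr16:57391238-57391818 in an intron of Filip1l and chr8:15519785-15520116 outside genes, share sequence with each other. They belong to a group of 10 members whose windows matched at 80% identity or more over at least 150 bases. Of this group, 9 were called in all 3 RNase H lists and 9 had a higher mean fold after digestion, with log2 differences from −0.31 to 2.15. The Filip1l member had folds from 56.0 over 77.3 to 137 before and of 74.9, 103 and 126 after. The chromosome 8 member had folds from 33.1 over 48.7 to 92.9 before and of 50.8, 64.8 and 66.6 after. Both sets overlapped. The chromosome 12 member, outside genes, was called in 6 untreated lists with folds from 4.16 over 4.97 to 7.98, and reached 16.7, 27.6 and 31.2 after digestion.

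The windows of the 3 members of the group called in all 9 untreated lists and of the member with the largest difference are shown because they let shared stretches be seen at unlinked places in the genome. The stretches differ between pairs of windows, and no single stretch is common to all of them. Capitals mark words of 31 bases that occur, on either strand, in the window of another member of the group.
chromosome 16 member, chr16:57391490-57391789: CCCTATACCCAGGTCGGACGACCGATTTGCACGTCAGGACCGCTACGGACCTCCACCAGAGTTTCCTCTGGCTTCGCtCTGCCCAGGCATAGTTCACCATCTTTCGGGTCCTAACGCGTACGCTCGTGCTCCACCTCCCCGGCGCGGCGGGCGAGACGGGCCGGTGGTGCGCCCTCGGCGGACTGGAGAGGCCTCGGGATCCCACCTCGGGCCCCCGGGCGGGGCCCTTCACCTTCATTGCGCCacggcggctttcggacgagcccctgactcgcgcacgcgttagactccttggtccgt
chromosome 8 member, chr8:15519784-15520083: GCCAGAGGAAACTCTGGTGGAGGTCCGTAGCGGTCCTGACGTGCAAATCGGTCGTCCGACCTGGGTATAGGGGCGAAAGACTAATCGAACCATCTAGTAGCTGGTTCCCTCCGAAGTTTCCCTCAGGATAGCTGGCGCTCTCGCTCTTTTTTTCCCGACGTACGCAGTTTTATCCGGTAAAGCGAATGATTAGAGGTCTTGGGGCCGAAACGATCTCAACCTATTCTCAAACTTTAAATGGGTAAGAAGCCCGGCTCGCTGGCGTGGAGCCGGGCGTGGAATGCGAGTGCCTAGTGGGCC
chromosome 13 member, chr13:44964934-44965233: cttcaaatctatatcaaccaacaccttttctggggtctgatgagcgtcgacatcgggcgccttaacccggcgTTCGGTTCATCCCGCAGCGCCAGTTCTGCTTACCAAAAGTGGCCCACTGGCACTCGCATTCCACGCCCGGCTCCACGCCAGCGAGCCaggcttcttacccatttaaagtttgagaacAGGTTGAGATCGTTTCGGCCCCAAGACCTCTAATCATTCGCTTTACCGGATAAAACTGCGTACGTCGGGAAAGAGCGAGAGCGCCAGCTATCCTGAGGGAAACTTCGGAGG
chromosome 12 member, chr12:100883318-100883617: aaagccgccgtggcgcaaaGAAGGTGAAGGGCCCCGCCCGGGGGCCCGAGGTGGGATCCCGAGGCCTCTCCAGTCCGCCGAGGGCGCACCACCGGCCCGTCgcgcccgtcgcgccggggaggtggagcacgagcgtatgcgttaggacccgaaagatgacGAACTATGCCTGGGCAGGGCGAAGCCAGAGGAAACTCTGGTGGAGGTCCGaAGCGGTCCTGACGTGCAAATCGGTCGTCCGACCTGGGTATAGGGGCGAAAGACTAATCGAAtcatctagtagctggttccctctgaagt
Capitals covered 243, 300, 198 and 193 of the 300 bases in turn. Reads from 1 such copy could align to another, so the level at each place is uncertain.

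**Figure D4:**
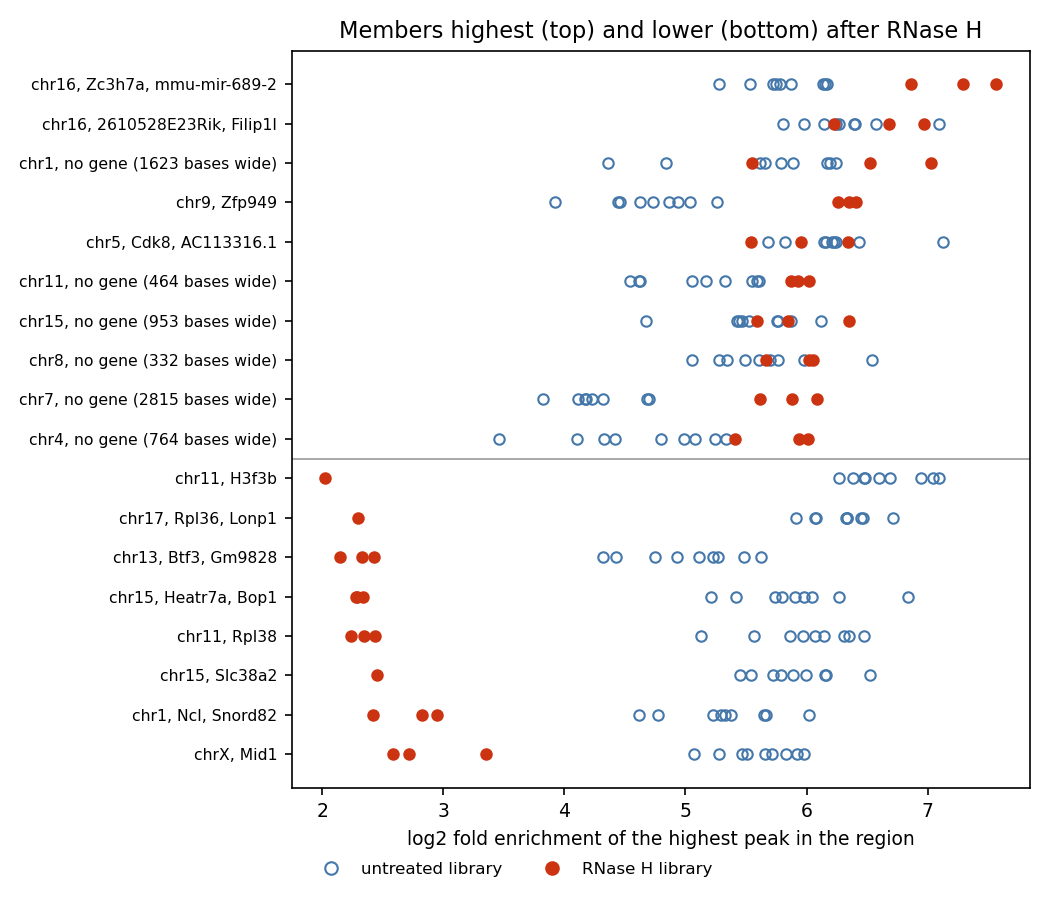
Rows are the 10 members with the highest mean fold in RNase H libraries (above the line) and 8 members at genes with a lower fold after digestion (below). The x axis gives the log2 fold of the highest peak, with open circles for untreated and filled circles for RNase H libraries that called the region. At H3f3b the only RNase H value is 4.07 on the linear scale, against 77.2 to 136 untreated, while at Zfp949 the RNase H values of 76.4 to 85.2 lie to the right of the untreated ones.

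Of the 995 members that overlap a gene, 396 (39.8%) were called in all 9 untreated lists, as were 180 of the 258 that span a protein-coding start (69.8%). Over all members this share was 32.8%, and over all recurrent regions 19.6%. It was not counted for the other recurrent regions at genes or at coding starts, so neither share can be called particular to members. Among members that span the start of a protein-coding gene, the 5 with the highest untreated fold lay at H3f3b, Rpl36, Rpl38, Slc38a2, and Heatr7a and Bop1, and in each the digested values lay below all untreated ones. These 5 were picked for a high untreated fold and do not stand for the members at protein-coding genes, 399 of 958 of which had a higher fold after digestion, with a median log2 difference of −0.14.

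At H3f3b, which encodes the replacement histone H3.3, the member chr11:115883964-115886970 had untreated folds from 77.2 over 96.8 to 136. After RNase H, only the library labelled siScramble had a peak, with a fold of 4.07 and a width of 420 bases against a mean of 2647 before. The log2 difference was −4.64, the lowest of all members. The summit of the RNase H peak held 11 fragments and lay 289 bases from the nearest untreated summit. Whether it comes from the same signal was not tested. The 300 bases around it are shown because it was the only RNase H peak at 1 of the strongest untreated regions at a gene. They are given on the plus strand of mm9 with CpG in capitals.
peak left at H3f3b, chr11:115886373-115886672: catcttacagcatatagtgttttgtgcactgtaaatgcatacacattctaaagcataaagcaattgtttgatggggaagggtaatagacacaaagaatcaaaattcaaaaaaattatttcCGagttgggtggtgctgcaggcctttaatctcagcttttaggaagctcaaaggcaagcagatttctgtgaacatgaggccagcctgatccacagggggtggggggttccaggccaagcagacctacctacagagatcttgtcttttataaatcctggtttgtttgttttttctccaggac
It held 1 CpG.

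At Rpl36 and Lonp1, chr17:56751261-56759654, untreated folds ran from 60.2 over 80.7 to 105, and the siScramble RNase H library alone had a peak, at 4.90. The member at Slc38a2, an amino acid transporter gene, at chr15:96526995-96531826, had untreated folds from 43.7 over 59.3 to 91.8 and 1 RNase H peak of 5.47 in the same library. That library was the deepest of the 12.

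Rpl38, which encodes a protein of the large ribosomal subunit, kept a peak in all 3 RNase H libraries. At chr11:114527080-114535606, untreated folds ran from 35.0 over 67.4 to 89.2, and RNase H folds were 5.40, 5.08 and 4.70. The mean width was 8070 bases before and 492 after. In the member at Heatr7a and Bop1, the latter a ribosome biogenesis factor, chr15:76273438-76285129, folds ran from 37.1 over 59.8 to 114 before and were 5.05, 4.89 and 4.85 after. Both differed by more than 3 log2 units, at −3.65 and −3.61.

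Among members called in all 3 RNase H lists, these were the lowest differences, followed by members at Mid1, Btf3 and Ncl. At Ncl, the nucleolin gene, chr1:88249528-88257498 also holds the small nucleolar RNA Snord82. Its folds ran from 24.6 over 40.1 to 65 before and were 7.71, 5.34 and 7.07 after. At Btf3, a transcription factor gene, chr13:99085750-99087330 had folds from 20.0 over 34.6 to 49.3 before and of 5.02, 4.42 and 5.37 after. At Mid1, a ubiquitin ligase gene, chrX:166427762-166434155 had folds from 33.6 over 50.4 to 63.3 before and of 6.55, 6.00 and 10.2 after, and 40.7% of the words at its RNase H summit were copied elsewhere. In all 3, the digested libraries lay below the untreated ones.

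In the other direction, the largest difference among members called in all RNase H lists and at least 3 untreated lists was 2.50, at chr1:181931566-181932101 in an intron of Cdc42bpa, a kinase gene. The 5 untreated libraries that called it had folds from 4.95 over 6.15 to 7.34, and the RNase H libraries 48.9, 26.3 and 30.6. At chr14:47722774-47723755, in an exon of Samd4 or Gm10371, 8 untreated folds ran from 5.64 over 8.62 to 13.4, against 42.7, 50.3 and 44.2. At chr17:55864962-55866533, 13.0 kb from the nearest start, that of Pot1b, 8 untreated folds ran from 4.54 over 6.73 to 12.2, against 33.9, 25.9 and 28.2. At chr2:34822278-34822913, outside genes, 5 ran from 4.22 over 7.36 to 8.42, against 28.6, 26.3 and 35.8. The untreated and RNase H values were apart in all of these, as in the chromosome 12 member above.

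The widest members lay at genes, and their RNase H peaks were narrower than the untreated ones. Their nearest untreated and RNase H summits lay 1216 to 10321 bases apart, and whether both come from the same signal was not tested. The widest, chr10:126716039-126743084, spans 27046 bases with Mbd6, Ddit3, Dctn2 and Mars, and had untreated folds from 34.7 over 39.4 to 63.1. No peak was called there in the siScramble RNase H library, and those labelled siDDX1 and siEXOSC3 had folds of 4.53 and 4.16, with a mean width of 317 bases. At Rundc3a and Slc25a39, chr11:102252555-102276315, untreated folds ran from 31.1 over 41.6 to 64.1 and the 1 RNase H peak, of 4.02, shared 4 bases with the region. At Lrrc4b, Aspdh and Josd2, chr7:51716035-51740631, the RNase H peaks were larger, with folds of 8.29, 7.85 and 8.94 against 19.1 over 27.2 to 39.9 and a mean width of 5528 bases against 19519.

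At Fasn, which encodes fatty acid synthase, chr11:120664115-120687670 had untreated folds from 20.4 over 32.0 to 59.6 and RNase H folds of 7.46, 5.92 and 5.08. All digested values lay below the untreated ones.

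Over all members, 9.10% of the windows around the RNase H summit held a tract of 20 bases or more with a unit of up to 6 bases, and 5.2% of the windows of recurrent regions without RNase H peak did. In RNase H regions that no untreated list called, 9.11% did.

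By position, members with a lower and a higher fold after digestion differed, as they did in the number of untreated lists. Of the 676 members with a lower fold, 28.0% had their RNase H summit within 1000 bases of an annotated start and 20.7% outside genes. Of the 741 with a higher fold, 9.04% and 44.4% did. By the depth-scaled summit, the shares were 24.7% and 23.4% of the lower members and 6.68% and 49.6% of the higher ones. In recurrent regions without RNase H peak, 20.7% of untreated summits lay near a start and 12.6% outside genes, and in the 8394 RNase H regions that no untreated list called, 4.04% and 59.5% of summits did. The members with a higher fold thus lay between both kinds of other region.

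**Figure D5:**
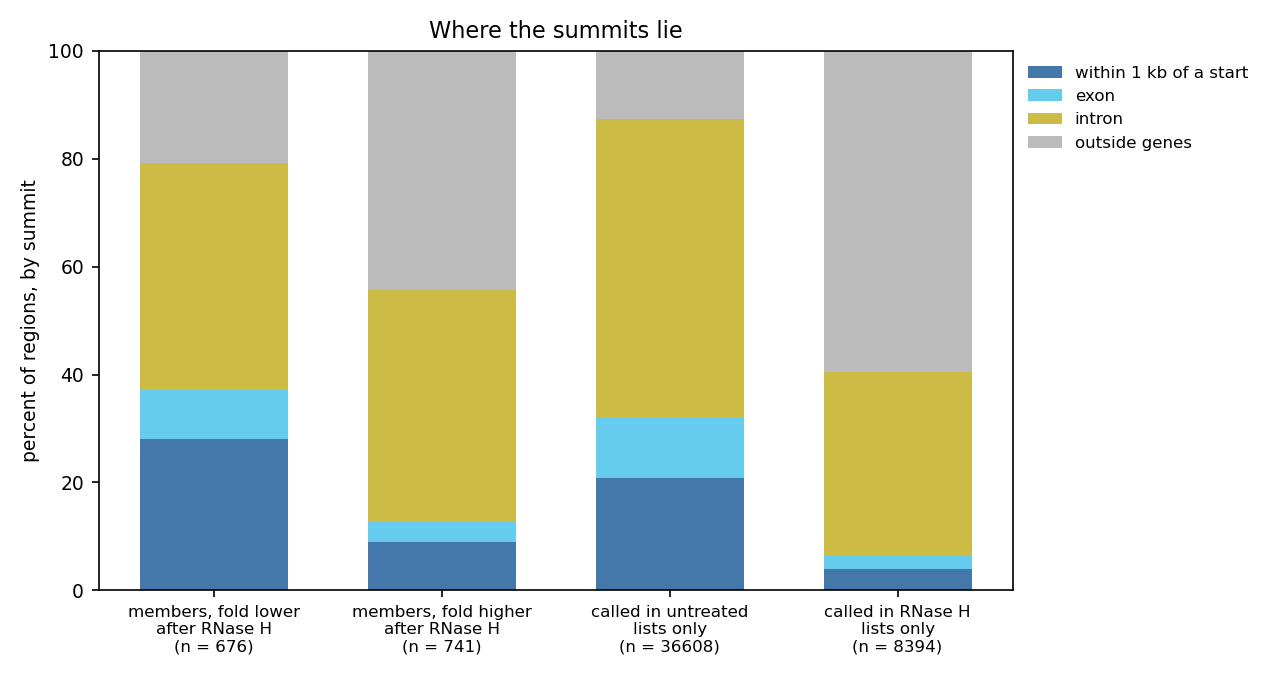
Bars give the percent of regions whose summit lay within 1000 bases of an annotated start, in an exon, in an intron or outside genes, for members with a lower (n = 676) and a higher fold (n = 741) after RNase H and for regions called in 1 kind of list only. The share near a start is 28.0% in the first and 9.04% in the second kind of member.

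A protein-coding start lay inside 258 members (18.2%) and 18.5% of the recurrent regions without RNase H peak. It lay inside 226 of the members with a lower fold (33.4%) and 32 of those with a higher fold (4.32%). By the depth-scaled summit these were 247 of 893 (27.7%) and 11 of 524 (2.10%). By recurrence, a coding start lay inside 38.7% of members called in 9 of 9 untreated lists and 3.55% of those called in 2 to 5. Position and GC content by direction of fold were not separated from recurrence. No annotated gene overlapped 422 members (29.8%), against 10.8% of the other recurrent regions. The median GC content of the 300 bases around the RNase H summit was 50.3% in members with a lower and 44.7% in members with a higher fold, and 43.3% in RNase H regions that no untreated list called.

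Copied sequence was more frequent in members than in the other recurrent regions. More than 50% of the 31-base words in the summit window occurred again in mm9 in 8.4% of members at the RNase H summit and in 7.69% at the untreated summit. The shares were 2.75% in recurrent regions without RNase H peak and 7.34% in RNase H regions that no untreated list called. By similarity of windows, 198 members fell into 54 groups of 2 or more and 1219 stood alone. The largest group, of 56 members, had a median log2 difference of −0.06, with 23 of 56 higher, beside 52.3% over all members. A group of 11 members with a median of 69.5 copies of their words, at Trhde, Foxp2 and Cntn3 among other places, had a higher mean fold after digestion in 10 members.

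The summit itself lay at or near the same place in many members. The nearest untreated and RNase H summits of a member were within 100 bases of each other in 911 members (64.3%). The median distance was 9 bases in members called in all 3 RNase H lists and 201 bases in those called in 9 untreated lists and 1 RNase H list.

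By chromosome, chromosome 15 had the most members, 167, which were 7.70% of its recurrent regions. Chromosome 11 had 162 (4.18%) and chromosome 8 had 141 (5.13%), while chromosome 7 had 39 (1.69%) and the X chromosome 18 (3.67%). Within 100 kb of each other, 93 members formed 13 clusters of 5 or more. The largest, of 11 members, lay at chr15:76172264-76559542 by Cyc1, Maf1, Hsf1 and Dgat1, with a median log2 difference of −0.77. A cluster of 10 lay at chr11:3019537-3098012 by Sfi1, all of them called in all 3 RNase H lists.

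Several members lay where the background itself was high. The local background, which MACS2 takes from the input library where it exceeds the genome-wide one, was more than 2 times the genome-wide value in 101 members (7.13%) in untreated lists and in 102 (7.20%) in RNase H lists. At the 7 members at Sfi1, a gene for a centrosomal protein, it was 19.5 to 25.9 times, and log2 differences lay between −0.97 and 0.45. At chr11:3049569-3051559, for example, folds ran from 3.05 over 3.55 to 4.03 before and were 2.97, 3.48 and 3.50 after, with overlap. In a group of 10 members with shared sequence, 8 of them at chr9:3000235-3035217 by Gm10722 and its neighbours, log2 differences lay between −0.54 and 0.32, with local backgrounds of 1.44 to 3981 times the genome-wide one.

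The mitochondrial genome held 2 members, chrM:15-6728 with both mitochondrial ribosomal RNA genes and chrM:10914-16261. In the first, untreated folds ran from 23.1 over 32.8 to 40.8 and RNase H folds were 7.47, 9.15 and 9.31. In the second they ran from 10.3 over 20.8 to 25.6 and were 5.70, 4.84 and 3.49. Neither pair of groups overlapped, but widths stayed close, at 6673 and 6299 bases and at 5330 and 5080 bases. The local background was 255 and 154 times the genome-wide one.

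At AY036118, annotated as a pseudogene and covering chr17:39979930-39985787, untreated folds ran from 35.4 over 66.8 to 109 and RNase H folds were 49.2, 51.5 and 58.1, within the untreated range. The local background was 52.1 times the genome-wide one. On chromosome 8, 10 members lay within chr8:126058326-126148739, which holds 5S ribosomal RNA genes. At n-R5s146, folds ran from 20.9 over 29.6 to 42.1 before and were 15.5, 14.3 and 20.2 after, all below. At AC141881.2 they ran from 16.8 over 29.3 to 42.8 and were 24.7, 16.2 and 32.9, with overlap. At n-R5s119 they ran from 17.0 over 21.2 to 27.2, and the siScramble RNase H library alone had a peak, of 5.74.

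Small structural RNA genes overlapped 29 members (2.05%) and 0.858% of the other recurrent regions. Their log2 differences ran from −3.91 to 1.94 with a median of −0.85, beside 0.05 over all members. Most of the 29 were called in 9 of 9 untreated lists, and all members called in 9 of 9 had a median of −0.96. The part of recurrence in this difference was not tested. Of the 29, 4 were above 0. The 2 members at mmu-mir-2134-4 were among these 4. At chr13:9833548-9833858, 2 untreated folds of 21.3 and 35.4 stood against 56.3, 68.4 and 61.8. At chr9:56071477-56071791, 2 of 4.80 and 7.08 stood against 14.3, 26.3 and 29.6. The snoRNA genes Snord95 and Snord96a lay with Gnb2l1, a gene for a ribosome-bound scaffold protein, in chr11:48613694-48623651, where untreated folds ran from 37.5 over 54.5 to 84.3 and the siDDX1 RNase H library alone had a peak, of 4.45.

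Cytosolic ribosomal protein genes overlapped 5 members, at Rpl8, Rpl13, Rpl36, Rpl38 and Rps18, of 80 such genes with a recurrent region. This was 0.353% of members, near the 0.290% of the other recurrent regions. All 5 were called in 9 of 9 untreated lists and had lower folds after digestion. Their median log2 difference was −3.65, beside −0.96 over all members called in 9 of 9. At Rpl13, chr8:125625489-125630279, untreated folds ran from 37.9 over 57.7 to 75.8 and the siScramble RNase H library had 3.45. At Rpl8, chr15:76733522-76740628, they ran from 40.0 over 49.6 to 59.7 and the same library had 5.27.

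Of all protein-coding genes with a recurrent region, 925 of 9391 (9.85%) overlapped a member. The 14 genes of enzymes that act on R-loops, such as Rnaseh1 and Dhx9, had a recurrent region in 11 and a member in 0. The exosome genes had a recurrent region in 10 of 10 and a member in 0. Replication-dependent histone genes had 1 member, at Hist4h4, of 32 with a recurrent region. Zfp genes had members in 13 of 208 (6.25%). Genes of 500 kb or more, such as Cntnap2 and Foxp2, had a member in 31 of 69 (44.9%), with no adjustment for length. Their 56 members (3.95% of members, beside 2.31% of the other recurrent regions) had a median log2 difference of 0.10. Olfactory and vomeronasal receptor genes had 1 member, at Olfr590-ps1, where 3 untreated folds ran from 3.72 over 4.69 to 6.98 and RNase H folds were 18.1, 8.31 and 16.5.

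Group labels were not used to choose the members, so the untreated groups were compared with exact permutation tests of the F statistic. These ran over the 280 splits of 9 libraries, in which the smallest possible p is 0.00357. The untreated calls compared here also made a region a member. The RNase H lists contributed unequally to the choice, with 1136 members in siScramble, 765 in siDDX1 and 882 in siEXOSC3. The p-values therefore hold for this chosen set only. The members called per library were 822, 957 and 989 in siScramble, 1198, 738 and 851 in siDDX1, and 862, 895 and 886 in siEXOSC3. Replicate 1 labelled siDDX1, the deepest untreated library, was the highest, and the groups overlapped. The siScramble libraries called a mean of 923 ± 88.6 members, the siDDX1 libraries 929 ± 240 and the siEXOSC3 libraries 881 ± 17.1 (SD over 3 libraries), with an exact permutation p of 0.943. The share of a library's peaks that lay at members was 4.28% ± 1.17, 4.63% ± 0.766 and 4.27% ± 0.843 (SD over 3 libraries), with an exact permutation p of 0.864.

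Peaks at members covered 2.25 ± 0.302 Mb, 2.13 ± 0.558 Mb and 2.13 ± 0.0857 Mb in the same order (SD over 3 libraries), and an exact permutation test on log2 bases gave p = 0.889. The log2 ratio of the median fold of member peaks to that of all peaks of the library was 0.21 ± 0.06, 0.20 ± 0.07 and 0.26 ± 0.04 (SD over 3 libraries), with an exact permutation p of 0.457. The adjusted p was 0.943 for all 4 tests in these permutation tests. No difference was detected between the groups as labelled, and 3 libraries a group leave room for differences of the size of these SDs. Without replicate 1 labelled siDDX1, the p-values were 0.232, 0.614, 0.204 and 0.0929 in the same order (exact permutation over 280 splits).

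Single members that split by group were rare. Of the members, 5 (0.353%) were called in 3 of 3 siScramble and 0 of 3 siDDX1 lists, as were 0.736% of all recurrent regions. The other way there were 8 (0.565%, beside 0.366% of all recurrent regions). For siScramble against siEXOSC3 there were 16 (1.13%, beside 0.936%) and 16 the other way (1.13%, beside 0.994%). For siDDX1 against siEXOSC3 there were 16 (1.13%, beside 0.718%) and 13 the other way (0.917%, beside 0.926%). These were 0.353% to 1.13% of the members, of the order of the background shares.

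Set beside the RNase H library of its own group, each untreated library gave a median fold difference near 0, but not all stayed near 0 after scaling by depth. The median log2 fold difference over members called in both was −0.14, −0.17 and −0.12 for the siScramble libraries, 0.23, 0.22 and 0.15 for siDDX1, and 0.24, 0.12 and −0.08 for siEXOSC3. As summit over library background, the medians were −0.54, −0.68 and −0.59 for siScramble, 0.29, −0.12 and −0.27 for siDDX1, and −0.10, −0.24 and −0.54 for siEXOSC3. With 1 RNase H library a group, its own deviation cannot be told apart from the group.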

How the data were processed

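DRIP-seq peak lists of 12 N2a libraries were analysed, and the 1 input sample was not analysed here. Per the labels and the study's methods, the authors aligned reads to mm9 with Bowtie2 2.4.4 and called peaks per library with MACS2 2.2.6 against input. The deposited lists give a display score (not used), the fold as a linear ratio over the local background, and the −log10 p and −log10 q. Wide regions overlap a peak more easily, and repeated sequence can take reads from other copies.

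Peaks of the untreated lists were merged where they overlapped or touched. The members, lists and named regions were chosen with earlier results of these data known. Regions were named by level after digestion, by difference, by width, by untreated fold at coding starts, and at the edge of the rule. Recovered summit pile-ups were whole within 0.01 of the −log10 p in 100% of 10981 member peaks. Summit windows of 300 bases, 31-base words, tracts and cuts were read from mm9, and genes from GENCODE vM1. Windows were matched with BLAST 2.17.0. Python 3.11.15, numpy 2.4.6, pandas 2.3.3, numba 0.67.0, scipy 1.17.1 and matplotlib 3.10.9 were used. The region code and the permutation test were tested on simulated data. Group differences were tested by exact permutation, with Benjamini-Hochberg adjustment over 4 tests. Untreated libraries came from separate plates of 1 cell line, so p-values measure only the spread between these libraries. Counts of fragments are not independent molecules. A region among the widest members, and a sequence, are not reported here.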

Additional observations from a re-analysis of the deposited data

Results flagged for a closer look

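The median log2 fold in RNase H minus untreated libraries was below 0 in all 3 libraries labelled siScramble (−0.14, −0.17 and −0.12) and above 0 in all 3 labelled siDDX1 (0.23, 0.22 and 0.15). The means of these medians differed by 0.34, siDDX1 minus siScramble, and the difference was not tested. Each group rests on 1 RNase H library, and that labelled siScramble was the deepest. With summits scaled by depth, the values were −0.54, −0.68 and −0.59 for siScramble and 0.29, −0.12 and −0.27 for siDDX1, so that the siDDX1 libraries no longer lay on 1 side of 0.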

How the results depend on the processing

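The number of members was 716 with a −log10 q of at least 5 in all lists and 820 with calls in 2 or more of 3 RNase H lists, against 1417. Leaving out 1 library at a time gave 1076 to 1384. The median log2 fold difference of 0.05 moved to −0.10 with 3 or more of 9 untreated lists, to 0.47 with 2 or more of 3 RNase H lists, to −0.16 with an equal number of peaks per untreated library (23882, the highest by −log10 q) and to −0.32 with summit pile-ups over the library background, chosen after seeing the data. It lay between −0.03, without replicate 1 labelled siDDX1, and 0.23, without the siScramble RNase H library. The median log2 width difference of −0.12 was 0 at a −log10 q of at least 5, −0.48 with 3 or more of 9 lists, 0.23 with 2 or more of 3 RNase H lists, −0.37 with peaks up to 1000 bases apart joined and −0.41 with equal peak numbers, and lay between −0.17 and 0.01 with 1 library left out. Without the RNase H library of siScramble, siDDX1 or siEXOSC3, it was 0.0125, −0.0133 and −0.00907. The sign of both medians thus depends on the rule, and the cause was not tested.

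The weakest member summits held 5 to 9 fragments, which limits single folds. The 4 tests across groups stayed above an adjusted p of 0.05 in all 76 alternatives, with unadjusted exact permutation p-values from 0.0929 to 0.996. With the replicate number as a block, the exact permutation p-values were 0.944, 0.889, 0.889 and 0.556 for members called, share of peaks, covered bases and relative fold, and changed no call. Over the 465 members called in all 9 untreated lists, the deviations of same-numbered libraries correlated between −0.20 and 0.15, with 3 of 9 pairs over 0.1. Libraries with different numbers were not correlated for comparison, so this cannot decide whether the numbers pair the libraries.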
